A study of Mus musculus with 20 samples.

Results

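Of 20 hippocampal RNA-seq libraries from mice, 3 taken 7 days after lipopolysaccharide (LPS) carried high RNA levels of Tcf7l2, Slc17a6 and Shox2, genes that mark the thalamus in textbook anatomy. They were wild-type LPS replicate 1, wild-type LPS replicate 4 and Fkbp5 knockout LPS replicate 1, and they are called the marker-high libraries here. The members were chosen on these RNA levels: the mean log2 CPM (counts scaled by library size, with 0.1 added) of the 3 genes was 4.23 in wild-type LPS 1, 4.32 in wild-type LPS 4 and 3.98 in knockout LPS 1, against 1.13 to 2.40 in the other 7 LPS libraries and 0.665 to 1.99 in the 10 saline libraries. Knockout LPS 1 at 3.98 was the library just inside this choice, and knockout LPS 3 at 2.40 was the one just outside it. Because the libraries were picked on RNA in the same libraries, every value that sets them against the other LPS libraries describes this split and tests nothing.

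The series holds 5 libraries each of knockout LPS, wild-type LPS, knockout saline and wild-type saline. All came from male C57BL/6J mice 12 weeks old, wild-type or labelled as knockout for Fkbp5, the gene for a co-chaperone of the glucocorticoid receptor, and were made from total hippocampal RNA. The tissue was taken on day 7 after each mouse received, once and intraperitoneally, 3 mg/kg LPS, the endotoxin of Gram-negative bacteria, or of saline. The labels do not state that each library came from its own animal, so p-values measure the spread between these libraries, which may be technical. The knockout allele, whether mice were pooled and how the hippocampus was dissected are not given in the sources used here.

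The hippocampus lies over the thalamus and the dorsal midbrain and is bordered by cortex, choroid plexus and meninges. Thalamic relay neurons use glutamate and carry sensory and motor signals to the cortex; they depend on the transcription factor Tcf7l2 and on the glutamate transporter Slc17a6 (VGLUT2), and Shox2 is expressed in part of them. Neurons of the habenula, pretectum, midbrain and hypothalamus keep other sets of homeobox, GATA and POU transcription factors in adult life, which hippocampal neurons largely lack. In bulk RNA, fewer cells of a type and less RNA per cell cannot be told apart.

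Total counts per library ran from 17546981 to 23269283 in the marker-high libraries, 16652992 to 27230202 in the other LPS libraries and 16746944 to 25840538 in the saline libraries. The libraries formed 2 sets that the genotype and treatment labels do not explain. Replicates 1 and 2 of every group had 23650 to 25237 genes with a count and 4.66% to 5.68% of counts from mitochondrially encoded genes, whereas replicates 3 to 5 had 21064 to 22247 genes and 8.41% to 11.4%. Wild-type LPS 1 and knockout LPS 1 belong to the set of replicates 1 and 2, and wild-type LPS 4 to the other, so the set is partly confounded with the split, and values within each set are given beside the pooled ones. In the LPS libraries Fkbp5 had 25.1 to 34.8 CPM in the knockout and 60.05 to 72.5 CPM in the wild type, so the groups did not overlap and knockout libraries kept a lower but clear level, of which the deposited gene-level counts do not show the exons. Fkbp5 differed by 0.18 on the log2 scale between marker-high and other LPS libraries (95% interval -0.07 to 0.43).

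The 3 genes behind the choice did not behave alike. Shox2 (mm10, chromosome 3, 66971727 to 66981771), a homeobox factor, had 11.8 CPM in wild-type LPS 1, 7.58 in wild-type LPS 4 and 10.4 in knockout LPS 1. Among the other LPS libraries its lowest, median and highest levels were 0.0645, 0.242 and 1.97 CPM, and among the saline libraries 0, 0.0844 and 0.704 CPM. The highest of the other LPS libraries for Shox2 was knockout LPS 3, and no library outside the marker-high 3 reached their range; the log2 difference was 4.82. Slc17a6 (chromosome 7, 51622006 to 51671119) had 42.3, 52.6 and 31.4 CPM in the marker-high libraries in the same order, against 4.21, 9.07 and 23.1 CPM as the lowest, median and highest of the other LPS libraries and 7.79, 10.6 and 15.8 CPM in saline, a log2 difference of 1.68. Tcf7l2 (chromosome 19, 55741820 to 55933654) had 12.9, 19.7 and 11.9 CPM, against 5.54, 6.56 and 7.65 CPM in the other LPS libraries and 4.26, 5.86 and 8.45 CPM in saline, a log2 difference of 1.14. Slc17a6 and Tcf7l2 have a clear level in hippocampal RNA without the marker-high libraries, and Shox2 was close to 0 there. Wild-type LPS 4 was highest for Slc17a6 and Tcf7l2 and lowest of the 3 for Shox2.

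**Figure D1:**
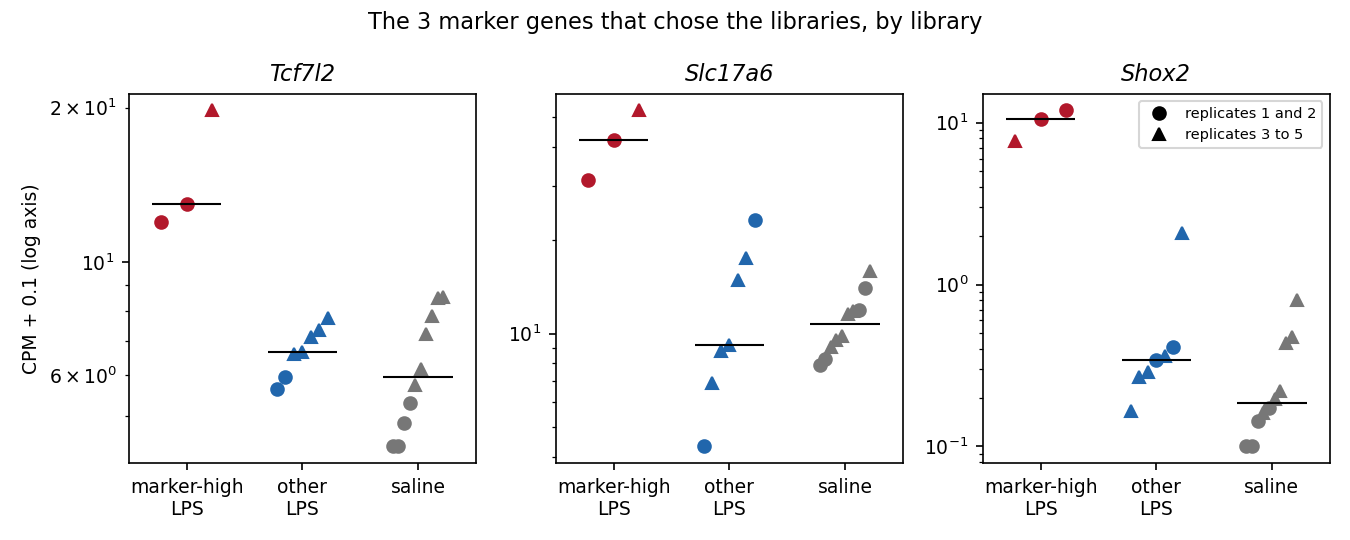
Level of Tcf7l2, Slc17a6 and Shox2 in CPM (log axis) in each of the 20 libraries, with marker-high LPS libraries left, other LPS libraries next and saline libraries right. The 3 marker-high libraries lie above every other library for each gene, with the widest gap for Shox2, where knockout LPS 3 is highest of the others.

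Across all genes, 54 of 16357 (0.33%) were higher in the marker-high libraries and 0 of 16357 (0%) were lower at an adjusted p under 0.05 in edgeR's quasi-likelihood test with genotype as a term, where 3145 genes had an unadjusted p under 0.05 in either direction. DESeq2 called 393 higher and 122 lower, and limma-voom with quality weights 4751 higher and 4347 lower, so edgeR gave the smallest counts of the 3 tools. The most sharply separated of them were genes of developmental transcription factors. Their log2 differences ran from 0.73 to 6.70 with a median of 2.77, against 0.0011 over all genes tested. For 53 of the 54 the lowest marker-high library lay above the highest other LPS library, the exception being Plekhg4, and such a separation was seen upward for 320 genes (1.96%) and downward for 211 (1.29%) of those tested. In 32 of the 54 the mean of the other LPS libraries was under 1 CPM, and in 22 the marker-high mean was at least 10 times that of the other LPS libraries. The expression filter was sized by the smaller class, so genes present in the 3 marker-high libraries alone could pass it. For 48 of the 54 the lowest marker-high library was also above the highest saline library. The share of all genes tested for which this held was not counted.

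The factor Gata3 (chromosome 2, 9857078 to 9890034), which in the adult brain marks inhibitory neurons of the midbrain and brainstem, had 7.60 CPM in wild-type LPS 1, 4.21 in wild-type LPS 4 and 5.48 in knockout LPS 1. The other LPS libraries had a lowest, median and highest level of 0, 0.0628 and 0.109 CPM and the saline libraries 0, 0.0749 and 0.277 CPM. In reads, this was 418 counts in the 3 marker-high libraries together, against 7 in the other 7 LPS libraries and 19 in the 10 saline libraries, so Gata3 was nearly absent outside the 3, with a log2 difference of 6.70. Its partner in inhibitory midbrain neurons, Tal1, had 9.28, 5.59 and 9.68 CPM in the marker-high libraries, against 1.32, 1.87 and 2.32 CPM as the lowest, median and highest of the other LPS libraries, a log2 difference of 2.19. Sox14, a factor of inhibitory neurons of the diencephalon and midbrain, had 4.76, 2.29 and 4.12 CPM, against 0, 0 and 0.328 CPM, a log2 difference of 5.96. None of these genes overlapped between the classes, and wild-type LPS 4 was lowest of the 3 for each.

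Otx2, a homeobox factor of the developing forebrain and midbrain that the choroid plexus also makes, had 14.9, 5.65 and 13.01 CPM in the marker-high libraries, against 0.206, 0.848 and 2.13 CPM as the lowest, median and highest of the other LPS libraries. Pax7, a marker of the dorsal midbrain, had 10.3, 5.96 and 10.3 CPM, against 0, 0.0645 and 0.820 CPM. Tfap2b, an AP-2 factor of the dorsal midbrain among other regions, had 13.1, 8.12 and 10.7 CPM, against 0, 0.0654 and 1.15 CPM. The log2 differences were 3.57 for Otx2, 6.01 for Pax7 and 5.62 for Tfap2b, with no overlap between the classes.

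Of the Iroquois homeobox genes, which pattern the caudal diencephalon and midbrain, 4 were higher. Irx2 (chromosome 13, 72628820 to 72634198) had 5.81, 4.33 and 6.38 CPM in the marker-high libraries, against 0, 0.113 and 0.601 CPM as the lowest, median and highest of the other LPS libraries, a log2 difference of 5.47. Irx1 had 3.20, 3.19 and 4.27 CPM, against 0.283, 0.509 and 0.874 CPM, a log2 difference of 2.95. Irx3 and Irx5, which lie near each other on chromosome 8, were higher by 3.32 and 3.68 on the log2 scale. For these 4 genes the 3 marker-high libraries were close to each other and did not overlap the rest.

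POU and BarH-like factors made a further group. Pou4f1 (Brn3a), made by medial habenula and midbrain neurons, had 6.08, 5.11 and 5.23 CPM in the marker-high libraries, against 0.0645, 0.126 and 0.984 CPM as the lowest, median and highest of the other LPS libraries. Pou4f2 (Brn3b) had 3.55, 3.01 and 1.90 CPM, against 0, 0.0808 and 0.219 CPM. Barhl1, a factor of mammillary and other excitatory neurons, had 9.32, 4.69 and 4.95 CPM, against 0, 0.0343 and 0.492 CPM. The log2 differences were 4.74 for Pou4f1, 4.68 for Pou4f2 and 5.82 for Barhl1, and the classes did not overlap for any of the 3. Mab21l1, a gene of eye and midbrain development, was higher by 3.80 on the log2 scale.

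In all, 24 of the 54 encode transcription factors, a grouping made after the values were seen. The share of transcription factors among all genes tested was not counted, so no enrichment is read from this number. Besides those above, the 24 include Uncx, Foxb1, Lhx5, Dmbx1, Ebf1, Ebf3, Barhl2, Lef1 and Foxp2. A further 3 encode subunits of the nicotinic acetylcholine receptor. Chrna3, the subunit of habenular and autonomic receptors, had 6.67, 3.73 and 6.92 CPM in the marker-high libraries, against 0.523, 1.10 and 1.495 CPM as the lowest, median and highest of the other LPS libraries. Chrnb3 had 4.17, 3.61 and 3.73 CPM, against 0.126, 0.451 and 0.874 CPM, and Chrna6, its partner in receptors of midbrain and retinal neurons, was higher by 5.31 on the log2 scale. The neuropeptide gene Tac1, which encodes substance P, and Tacr1, which encodes its receptor, were higher by 0.86 and 1.62 on the log2 scale. Genes at high levels were rarer in this set: Vamp1, a synaptic vesicle fusion protein, had 224, 238 and 192 CPM in the marker-high libraries, against 119, 128 and 139 CPM as the lowest, median and highest of the other LPS libraries. Baiap3, a regulator of dense-core vesicle release, had 32.0, 19.3 and 30.8 CPM, against 4.18, 6.41 and 7.98 CPM, and Hs3st3b1, a heparan sulfate sulfotransferase, was higher by 2.52 on the log2 scale.

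**Figure D2:**
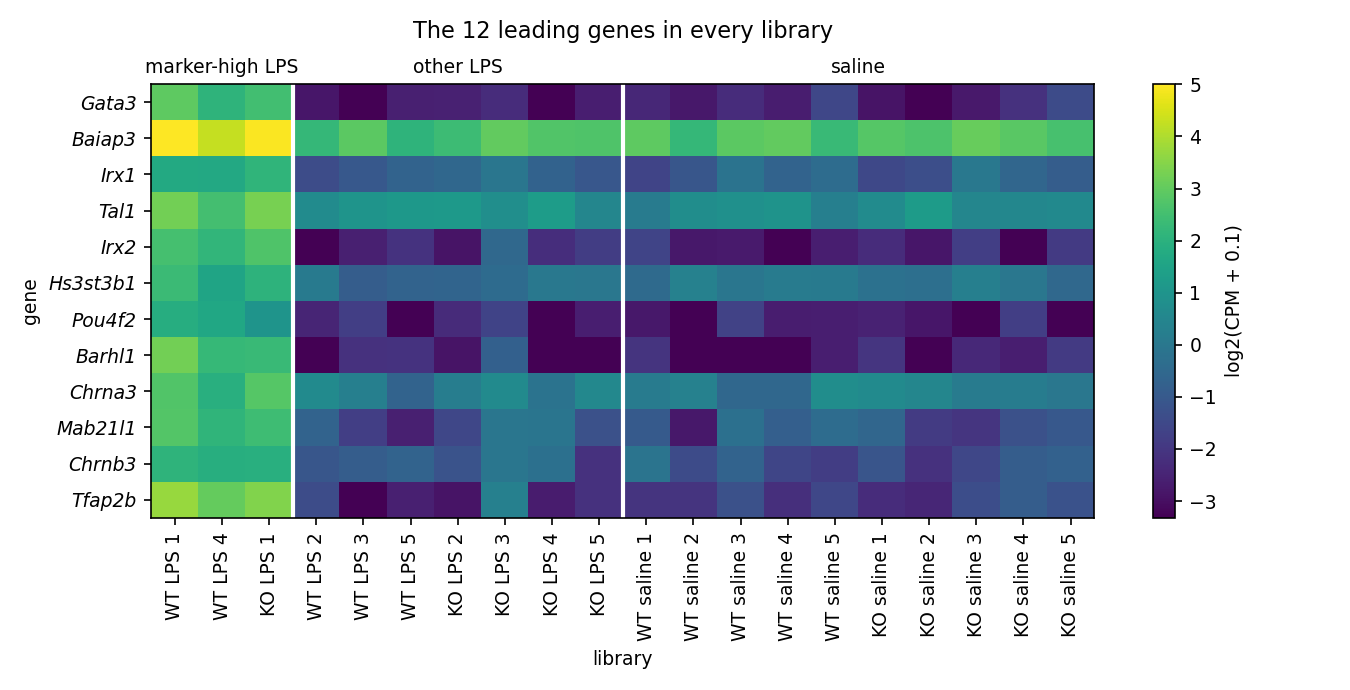
Level of the leading genes as CPM on a log scale in the 20 libraries, with marker-high libraries left, other LPS libraries next and saline libraries right. The regional transcription factors stand out in the 3 marker-high columns, with intermediate values for several of them in knockout LPS 3.

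The 3 libraries were not equal. Wild-type LPS 1 was the highest of the 3 for 30 of the 54 genes, knockout LPS 1 for 21 and wild-type LPS 4 for 3, and wild-type LPS 4 was the lowest for 42. Among the other 7 LPS libraries, knockout LPS 3 was the highest for 29 of the 54. In knockout LPS 3 the level was at least 2 times the mean of the other 6 for 22 of the 54 genes, with a median ratio of 1.72, so the library just outside the choice also had intermediate levels of part of these genes. How many of all genes tested had such ratios in knockout LPS 3 was not counted. The 54 genes had a median log2 difference of 0.12 between the other LPS libraries and saline.

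The 54 genes were compared within each library set. Within replicates 1 and 2, the 2 marker-high libraries against the 2 others gave a median log2 difference of 2.88. Within replicates 3 to 5, wild-type LPS 4 against the 5 others gave 2.32. All 53 genes that had values in each set were above 0. Because the LPS classes did not overlap for 53 of the 54, these signs were fixed by the choice of genes and are no separate check. With library set as a term, 133 genes (0.813%) were higher and 13 (0.0795%) lower, and the 133 included all 54. That count was 27 without knockout LPS 1, 38 without wild-type LPS 2, 50 without wild-type LPS 1, 73 without knockout LPS 5, 81 without knockout LPS 2 and 1299 without wild-type LPS 4. Without library set as a term the count of 54 depended on single libraries too: it was 1 without knockout LPS 1, 5 without wild-type LPS 1, 24 without wild-type LPS 3, 30 without wild-type LPS 5, 35 without knockout LPS 2, 1117 without wild-type LPS 2 and 2142 without wild-type LPS 4. With the replicate number as a block it was 0, and 714 genes then had an unadjusted p under 0.05; replicate 1 was marker-high in each genotype, so replicate 4 was the 1 number with both classes. Under the block the 21 genes of the 54 that were named by rule all had log2 differences above 0. They were called from these same libraries, so their signs are no separate check. For 11 the difference was at least as large as without the block. Gata3 had 9.21 against 6.70, Irx2 5.78 against 5.47 and Irx1 3.17 against 2.95, whereas Foxp2 had 0.57 against 2.75 and Tal1 1.24 against 2.19. No gene (0 of 16357, 0%) passed the threshold for a different split in the knockout, where 1 library was marker-high, than in the wild type, with 312 at an unadjusted p under 0.05 and 0 called by DESeq2.

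The label of thalamus was checked against 22 genes of relay nuclei, and the data went against it in part. Of the 21 tested, 4 were higher (Shox2, Lef1, Patj and Tcf7l2), 0 were lower, and the median log2 difference was 0.82, against 0.0011 over all genes. Shox2 and Tcf7l2 are genes of the rule. Without the 3 genes of the rule, 2 of 18 were higher, where 0.33% of all genes were, and 15 of 18 lay above 0 with a median of 0.63. Of these 18, 9 had an unadjusted p under 0.05 in edgeR, against 19.2% of all genes. Upward separation without overlap was seen for 3 of the 18, against 1.96% of all genes. Lef1, a Wnt pathway factor of thalamic neurons, had 14.3, 6.20 and 12.5 CPM in the marker-high libraries, against 2.42, 3.44 and 4.25 CPM as the lowest, median and highest of the other LPS libraries, and Patj, a polarity protein, was higher by 1.61 on the log2 scale. Zfhx3 had 8.81, 3.55 and 8.57 CPM, against 1.05, 1.75 and 3.39 CPM. Some genes that are among the most abundant of sensory relay neurons, picked here after their values were seen, showed no such separation. Prkcd, the delta isoform of protein kinase C, had 27.3, 22.98 and 23.9 CPM, against 16.4, 25.8 and 38.2 CPM, a log2 difference of -0.04 (95% interval -0.56 to 0.49). The log2 differences were 0.03 for Ramp3, 0.10 for Synpo2, 0.16 for Ntng1, -0.12 for Rora and -0.25 for Plekhg1, and Gbx2 stayed at or below 0.060 CPM in the 10 LPS libraries.

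The habenula list gave the same mixture. Of its 11 tested members of 14, 6 were higher (Irx2, Pou4f1, Irx5, Irx3, Irx1 and Chrna3), where 0.33% of all genes were, and the median was 2.42. A member present in the marker-high libraries alone could pass the filter, so the median over tested members can lean upward. Members that define habenular neurons did not separate the classes: Gpr151, an orphan receptor of the habenula, had 0.390, 1.38 and 0.824 CPM in the marker-high libraries, against 0.364, 1.00 and 1.37 CPM as the lowest, median and highest of the other LPS libraries. The log2 differences were -0.12 for Gpr151, -0.47 for Tac2, 0.04 for Gng8, 0.18 for Lrrc55 and -0.16 for Nwd2. Chat, Slc18a3 and Chrnb4, of the cholinergic medial habenula, were under the expression filter.

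On the midbrain list 7 of 11 genes were tested, 4 were higher (Gata3, Sox14, Otx2 and Tal1) and the median was 2.19. Over all genes 0.33% were higher. Gata3 and Sox14 had 7 and 8 counts in the other LPS libraries together. They passed the filter through the marker-high libraries, which raised this median. The dopamine enzyme gene Th had 0.234, 0.782 and 0.179 CPM in the marker-high libraries, against 0.343, 0.820 and 1.10 CPM as the lowest, median and highest of the other LPS libraries, and the serotonin enzyme gene Tph2 differed by -0.56 on the log2 scale. Gata2 had 6.59, 2.89 and 7.24 CPM, against 2.03, 2.97 and 4.28 CPM, so its wild-type LPS 4 value lay inside the range of the others. Slc6a3, Slc6a4, En1 and Foxa2 were under the filter. Because the markers that define thalamic relay, habenular, dopamine and serotonin neurons did not move together, no cell type name is given to the material, and the 3 libraries are named by the genes that set them apart.

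For other forebrain lists the medians were -0.19 over 8 genes of the thalamic reticular nucleus and zona incerta, where Lhx1 separated the classes at 2.57. They were 0.45 over 4 hypothalamic genes, -0.04 over 12 striatal genes, with Tac1 higher and Drd2 at 1.42, -0.15 over 14 cortical layer genes, with Foxp2 higher by 2.75, and -0.34 over 6 genes of the subiculum and retrosplenial cortex.

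**Figure D3:**
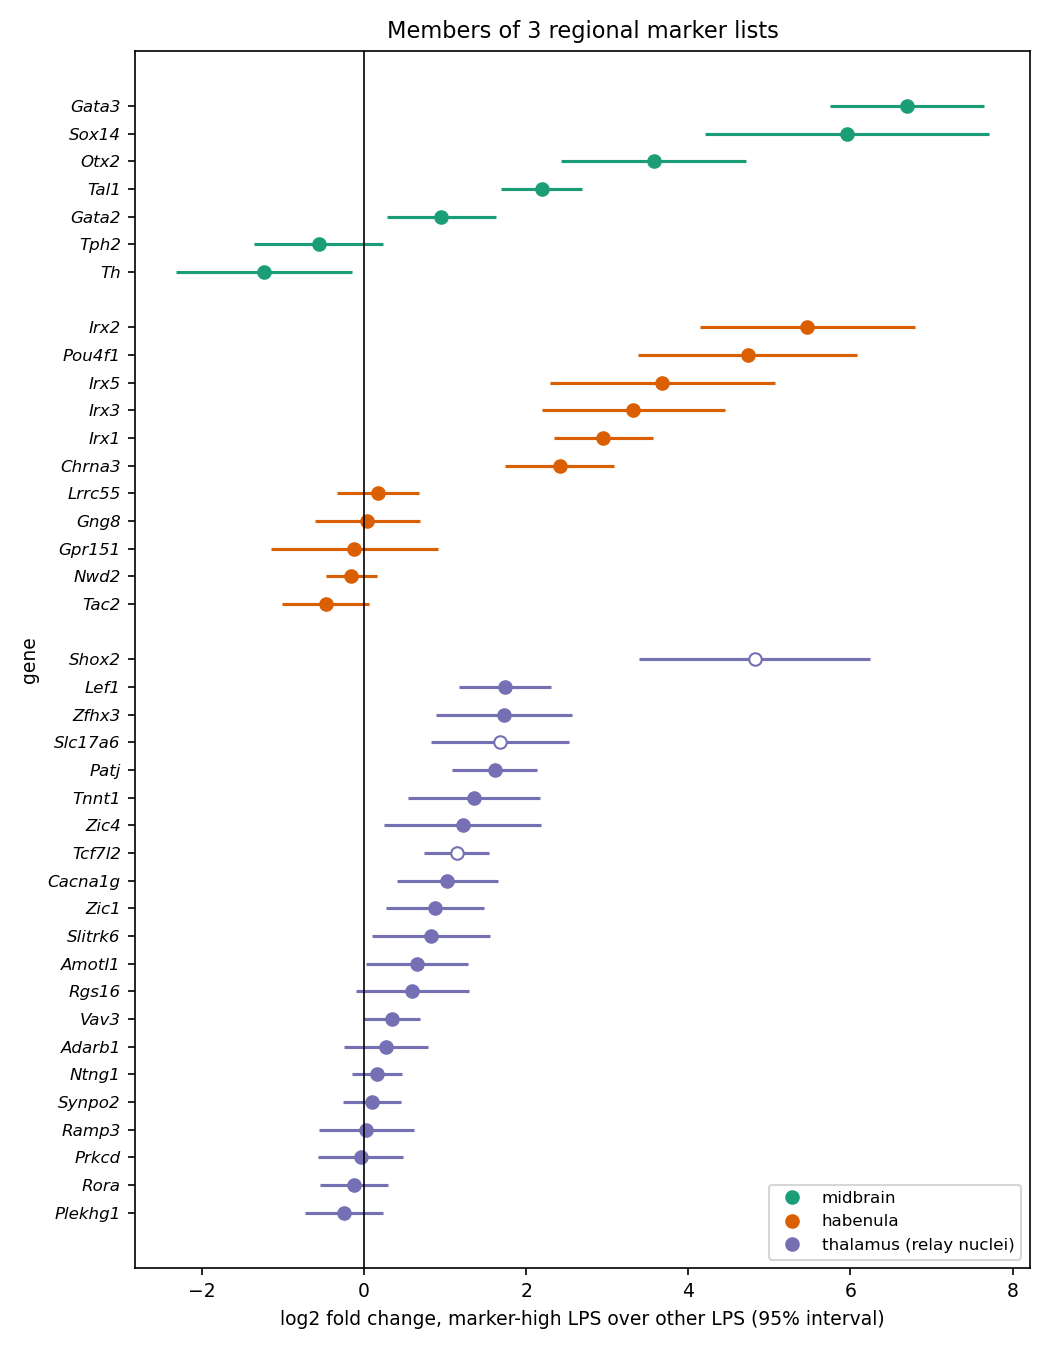
Log2 difference between marker-high and other LPS libraries for each tested gene of the midbrain, habenula and relay lists, 1 row per gene. Lines are the confidence intervals from the fit, and open circles are the 3 genes of the rule. The other regional lists are not drawn. Habenula and midbrain lists hold both genes above 3 and genes near 0, and the relay list spreads from about 0 upward.

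Of 20 meningeal fibroblast genes, 19 had a log2 difference above 0 and 0 passed the threshold in edgeR (9 at an unadjusted p under 0.05). DESeq2 called 1 of the 20 higher and limma-voom 9, where 2.4% and 29.0% of all genes were. Within replicates 1 and 2, edgeR called 11 of the 20 higher, where 8.36% of all genes were. DESeq2 with library set as a term called 4, where 2.63% of all genes were. The median log2 difference was 0.73 pooled, 1.00 within replicates 1 and 2 and 0.99 within replicates 3 to 5. Col3a1, the type III collagen chain, had 8.27, 3.55 and 3.76 CPM in the marker-high libraries, against 1.07, 2.20 and 2.67 CPM as the lowest, median and highest of the other LPS libraries. Col1a2 had 32.7, 22.1 and 16.6 CPM, against 7.37, 12.6 and 16.1 CPM, and Col1a1 had 23.1, 15.7 and 11.9 CPM, against 5.48, 10.1 and 11.1 CPM. These 3 collagen genes separated the LPS classes, but the saline libraries spanned 6.21 to 25.5 CPM for Col1a2 and 4.90 to 19.7 CPM for Col1a1, so wild-type LPS 4 and knockout LPS 1 lay inside the saline range for these 2 genes. Fmod, a small proteoglycan, had 35.9, 15.9 and 8.31 CPM, against 2.71, 7.74 and 15.7 CPM, while Dcn and Lum, proteoglycans of the same cells, differed by -0.24 and 0.08 on the log2 scale. As a mean over the list on a centred log2 scale, the marker-high libraries had 1.18 in wild-type LPS 1, 0.74 in wild-type LPS 4 and 0.14 in knockout LPS 1, against -0.59 to 0.50 in the other LPS libraries and -0.75 to 1.16 in the saline libraries, so knockout LPS 1 was not set apart.

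Border macrophages are the resident macrophages of meninges and perivascular spaces. All 8 tested of their 10 genes lay above 0 with a median of 0.59, and 0 passed the threshold in edgeR (1 at an unadjusted p under 0.05). DESeq2 called 0 of the 8 higher and limma-voom 3, where 2.4% and 29.0% of all genes were. Cd163, a haemoglobin scavenger receptor, had 3.35, 1.68 and 1.43 CPM in the marker-high libraries, against 0.411, 0.984 and 1.09 CPM as the lowest, median and highest of the other LPS libraries. Mrc1, the mannose receptor, differed by 0.60 on the log2 scale and overlapped.

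Choroid plexus, ependyma, vessels and myelin differed less. The median over 16 tested choroid plexus genes was 0.26, and the 1 that was higher, Otx2, stands on the midbrain list too; the plexus folate receptor Folr1 and Klotho (Kl) lay at -0.54 and -0.55 and Aqp1 at 0.98, each with overlap. The medians were -0.04 over 15 ependymal and cilia genes, 0.21 over 16 endothelial genes, 0.26 over 12 mural genes and -0.06 over 16 myelin genes, with 0 genes called in any of the 4 in edgeR; by list in that order 0, 1, 5 and 1 had an unadjusted p under 0.05, and DESeq2 called 0 endothelial and 0 myelin genes. Over all genes 19.2% had an unadjusted p under 0.05 in edgeR. With limma-voom 2 endothelial genes were higher and 1 lower, and 3 myelin genes each way, where 29.0% and 26.6% of all genes were. Within replicates 1 and 2 edgeR called 2 of 16 endothelial genes higher and 3 of 16 myelin genes lower, where 8.36% and 7.49% of all genes were. For 15 of the 16 endothelial genes the 95% interval lay within 1 log2 unit of 0, and for 14 of the 16 myelin genes. The mural median was 0.53 within replicates 1 and 2 and -0.15 within replicates 3 to 5.

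**Figure D4:**
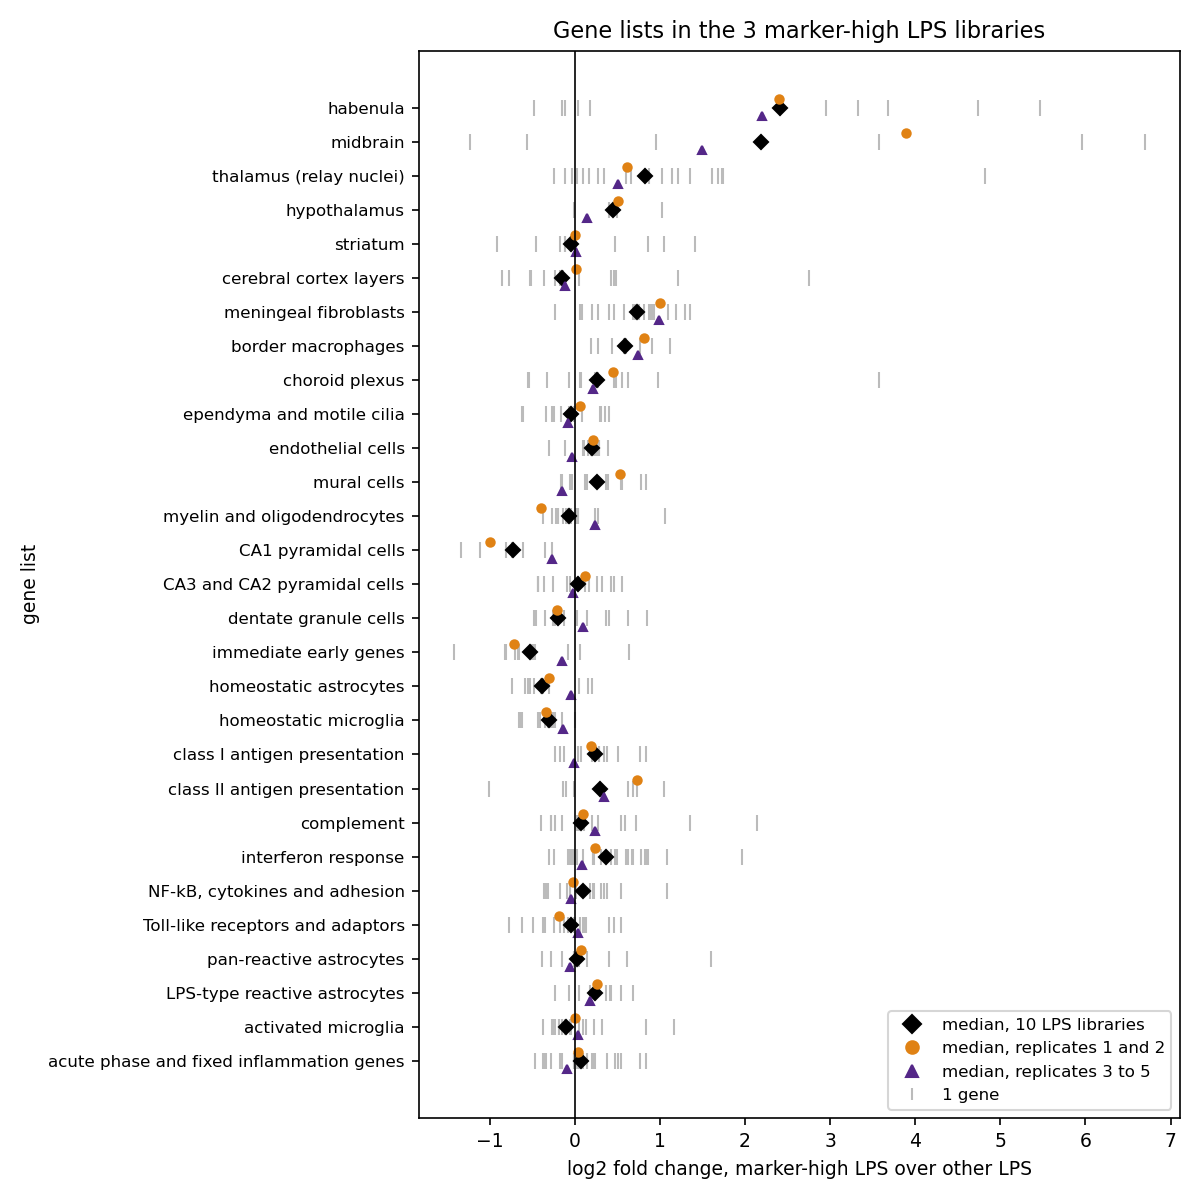
Median log2 difference between marker-high and other LPS libraries for a selection of the gene lists, 1 row per list. Midbrain, habenula, relay and meningeal lists lie farthest above 0, CA1 and immediate early lists farthest below 0, and inflammation lists closer to 0. Medians are over tested genes, and the filter could pass genes present in the marker-high libraries alone.

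The markers of the labelled tissue were present. Prox1, the defining factor of dentate granule cells, had 111, 124 and 92.9 CPM in the marker-high libraries, against 94.9, 117.5 and 172 CPM as the lowest, median and highest of the other LPS libraries. CA1 genes were the hippocampal list with the lowest median: all 8 CA1 pyramidal genes lay below 0 with a median of -0.73. In edgeR 0 were called (5 at an unadjusted p under 0.05). DESeq2 called 1 of the 8 lower and limma-voom 7, where 0.746% and 26.6% of all genes were. Within replicates 1 and 2 edgeR called 7 of the 8 lower, where 7.49% of all genes were, within replicates 3 to 5 it called 0, and without wild-type LPS 4 it called 6, where 11.2% of all genes were. Wfs1, a CA1 marker, had 49.99 CPM in wild-type LPS 1, 190 in wild-type LPS 4 and 84.4 in knockout LPS 1, against 125, 196 and 261 CPM as the lowest, median and highest of the other LPS libraries. The 2 marker-high libraries of replicate 1 carried the low values: the CA1 median was -0.99 within replicates 1 and 2 and -0.27 within replicates 3 to 5, and the centred list mean was -1.12 in wild-type LPS 1, -1.03 in knockout LPS 1 and -0.16 in wild-type LPS 4, against -0.32 to 0.34 in the other LPS libraries.

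The medians were -0.20 over 15 dentate granule genes, 0.04 over 16 CA3 and CA2 genes and -0.14 over 15 interneuron genes, so the dentate and CA3 lists did not share the CA1 values. Immediate early genes, which report recent neuronal activity, had a median of -0.52, with -0.71 within replicates 1 and 2 and -0.15 within replicates 3 to 5. Of the 14, 0 were called in edgeR and 9 had an unadjusted p under 0.05, against 19.2% of all genes. DESeq2 called 1 lower, where 0.746% of all genes were. With limma-voom 10 were lower and 1 higher, where 26.6% and 29.0% of all genes were. Within replicates 1 and 2 edgeR called 9 lower and 1 higher, where 7.49% and 8.36% of all genes were. Without wild-type LPS 4 it called 8 lower, where 11.2% of all genes were. Arc, which did not pass the threshold, had 47.9, 67.0 and 67.4 CPM in the marker-high libraries, against a range of 67.8 to 137 CPM. Junb and Dusp1 lay apart between the classes at -0.66 and -0.52 without passing it. Downward separation was seen for these 3 of the 14, and for 1.29% of all genes tested. The 13 mitochondrially encoded genes had a median of -0.63 that was -0.14 with library set as a term, and 12 homeostatic astrocyte genes had -0.39 and -0.15. The astrocyte glutamate transporter Slc1a2 had 1616, 2752 and 1191 CPM in the marker-high libraries, against 2086, 2947 and 3331 CPM as the lowest, median and highest of the other LPS libraries, and was among the 13 lower genes with library set as a term. The part of the library set in these lower values was not tested beyond these within-set figures.

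Inflammation genes were set beside all genes in the same comparison. The 11 inflammation lists held 170 genes, of which 153 were tested, and 0 passed the threshold in edgeR, against 54 of 16357 (0.33%) over all genes; 30 (19.6%) had an unadjusted p under 0.05, against 19.2% of all genes. DESeq2 called 3 higher (1.96%) and 0 lower, where 2.4% and 0.746% of all genes were. With limma-voom 46 were higher (30.1%) and 33 lower (21.6%), where 29.0% and 26.6% of all genes were. In edgeR without wild-type LPS 4, 16 of 158 inflammation genes were higher (10.1%) and 7 lower (4.43%), where 12.5% and 11.2% of all genes were. Without wild-type LPS 2, 7 of 151 were higher (4.64%) and 2 lower (1.32%), where 7.0% and 0.602% of all genes were. Within replicates 1 and 2, 12 of 158 were higher (7.59%) and 3 lower (1.9%), where 8.36% and 7.49% of all genes were, and within replicates 3 to 5 the counts were 0 of 152, where 0.0809% and 0.0125% of all genes were. Their median log2 difference was 0.035, against 0.0011 over all genes. The 95% interval lay within 1 log2 unit of 0 for 104 of the 153, with a median half-width of 0.522. These intervals rest on the spread between libraries and are not adjusted for the number of genes. To pass the adjusted threshold, a typical gene needed a larger difference than this half-width. Upward separation without overlap was seen for 2 of the 153 (1.31%), against 1.96% of all genes. Of these, Ifit1, an interferon-induced antiviral gene, had 2.85, 2.17 and 2.33 CPM in the marker-high libraries, against 1.05, 1.15 and 1.82 CPM as the lowest, median and highest of the other LPS libraries, and Fbln5, an elastic fibre protein of the astrocyte list, differed by 0.42 on the log2 scale.

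By list, the medians were 0.24 for class I antigen presentation, 0.30 for class II, 0.07 for complement, 0.37 for the interferon response, 0.10 for NF-kB genes and cytokines, -0.04 for Toll-like receptors and their adaptors, 0.02 for pan-reactive astrocytes, 0.24 for LPS-type reactive astrocytes, -0.10 for activated microglia, -0.30 for homeostatic microglia and 0.08 for the 25 fixed inflammation genes. Some lists leaned to one side. Above 0 lay 21 of 28 tested interferon genes, 12 of 15 class I genes, 9 of 11 LPS-type astrocyte genes and 1 of 15 homeostatic microglia genes. Of these, in list order, 8, 2, 3 and 4 had an unadjusted p under 0.05 in edgeR, against 19.2% of all genes. Signs were more mixed elsewhere, as with 11 of 16 complement and 7 of 20 activated microglia genes above 0. Of the 16 genes on the neutrophil, monocyte and lymphocyte list 1 was above the filter.

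Among the 25 fixed inflammation genes, Gfap, the intermediate filament of astrocytes, had 456, 461 and 565 CPM in the marker-high libraries, against 462, 502 and 581 CPM as the lowest, median and highest of the other LPS libraries and 360, 422 and 599 CPM in saline. Its log2 difference between the LPS classes was -0.01 (95% interval -0.28 to 0.26). The differences were 0.05 for Vim, 0.03 for C4b, 0.08 for H2-K1, -0.01 for Unc93b1, 0.09 for Tlr2, 0.05 for Itgax, 0.15 for Lcn2, 0.15 for Neurl3, -0.15 for Serpina3n and -0.17 for B2m. They were 0.20 for C3, 0.23 for Irf7, 0.24 for H2-D1, 0.38 for Csf3r, 0.47 for Parp14, 0.50 for H2-Q6, 0.54 for Icam1, 0.77 for Saa3 and 0.84 for Lyz2, and -0.27 for C1qa, -0.34 for Cxcl16, -0.35 for Aif1, -0.37 for Cd52 and -0.47 for Lag3. The classes overlapped for all 25, and 16 of the 25 intervals lay within 1 log2 unit of 0.

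Set against the saline libraries, which neither LPS class contributed to, the same 25 genes had a median log2 difference of 0.81 in the marker-high libraries and 0.63 in the other LPS libraries. The 2 comparisons share the saline libraries and the fit. Over all genes, 179 of 17204 (1.04%) were higher and 15 (0.0872%) lower in the marker-high libraries than in saline, and 2 (0.0116%) were higher and 0 (0%) lower in the other LPS libraries than in saline, where 319 had an unadjusted p under 0.05 and DESeq2 called 19 higher. The count of 179 was 72 without knockout LPS 1, 82 without wild-type LPS 1, 1184 without wild-type saline 1 and 1407 without wild-type LPS 4. Among the 156 inflammation genes in that fit, 10 were higher than saline in the marker-high libraries (H2-D1, H2-Q4, H2-Q6, Trim30a, Lcn2, Aspg, Lyz2, Lag3, Saa3 and Neurl3) and 2 in the other LPS libraries (Lag3 and Saa3), and the direct comparison of the 2 LPS classes called none of these 10 in edgeR; among these genes DESeq2 called Aspg higher there, and limma-voom called Aspg, H2-Q4, Saa3, Lyz2 and H2-D1 higher. The counts of 10 and 2 were 20 and 12 with library set as a term, 16 and 11 in DESeq2 and 7 and 7 with the replicate block. The 10 was 3 without wild-type LPS 1, 4 without knockout LPS 1, 26 without wild-type saline 1 and 33 without wild-type LPS 4, and the 2 was 4 without wild-type saline 5, 2 without wild-type saline 4, wild-type LPS 2 or wild-type LPS 5, and 1 without any other single library. The difference between the counts of 10 and 2 was not tested.

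Lag3, an inhibitory receptor that microglia also express, had 10.9, 9.74 and 8.57 CPM in the marker-high libraries, against 10.7, 13.6 and 20.1 CPM as the lowest, median and highest of the other LPS libraries and 5.34, 5.82 and 7.71 CPM in saline. It was higher than saline by 0.72 on the log2 scale in the marker-high libraries (SE 0.14, edgeR adjusted p = 0.0113) and by 1.22 in the other LPS libraries (SE 0.11, edgeR adjusted p = 1.18e-05), above the highest saline library in 10 of 10 LPS libraries. Saa3, an acute phase protein, had 1.87, 0.963 and 3.30 CPM in the marker-high libraries, against 0.196, 1.00 and 2.79 CPM in the other LPS libraries, and no count in the 10 saline libraries. Against the limit of 3 counts over the saline total, Saa3 was at least 168-fold higher in the marker-high libraries (156 counts, edgeR adjusted p = 0.00087) and at least 92.5-fold higher in the other LPS libraries (191 counts, edgeR adjusted p = 0.0352). The LPS classes overlapped for each of these transcripts.

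Lyz2, a lysozyme of macrophages and microglia, had 19.1, 9.93 and 14.4 CPM in the marker-high libraries, against 4.48, 6.06 and 12.7 CPM as the lowest, median and highest of the other LPS libraries and 2.89, 4.01 and 6.30 CPM in saline. It was higher than saline by 1.77 on the log2 scale in the marker-high libraries (SE 0.27, edgeR adjusted p = 0.000698), and the other LPS libraries differed from saline by 0.91 (SE 0.22, edgeR adjusted p = 0.344). H2-D1, a class I heavy chain, had 63.7, 56.4 and 57.7 CPM, against 42.6, 51.7 and 60.5 CPM and 24.5, 34.9 and 41.7 CPM in saline, with log2 differences from saline of 0.83 (SE 0.14, edgeR adjusted p = 0.0027) and 0.63 (SE 0.11, edgeR adjusted p = 0.0872). In each of the 10 LPS libraries H2-D1 was above the highest saline library.

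**Figure D5:**
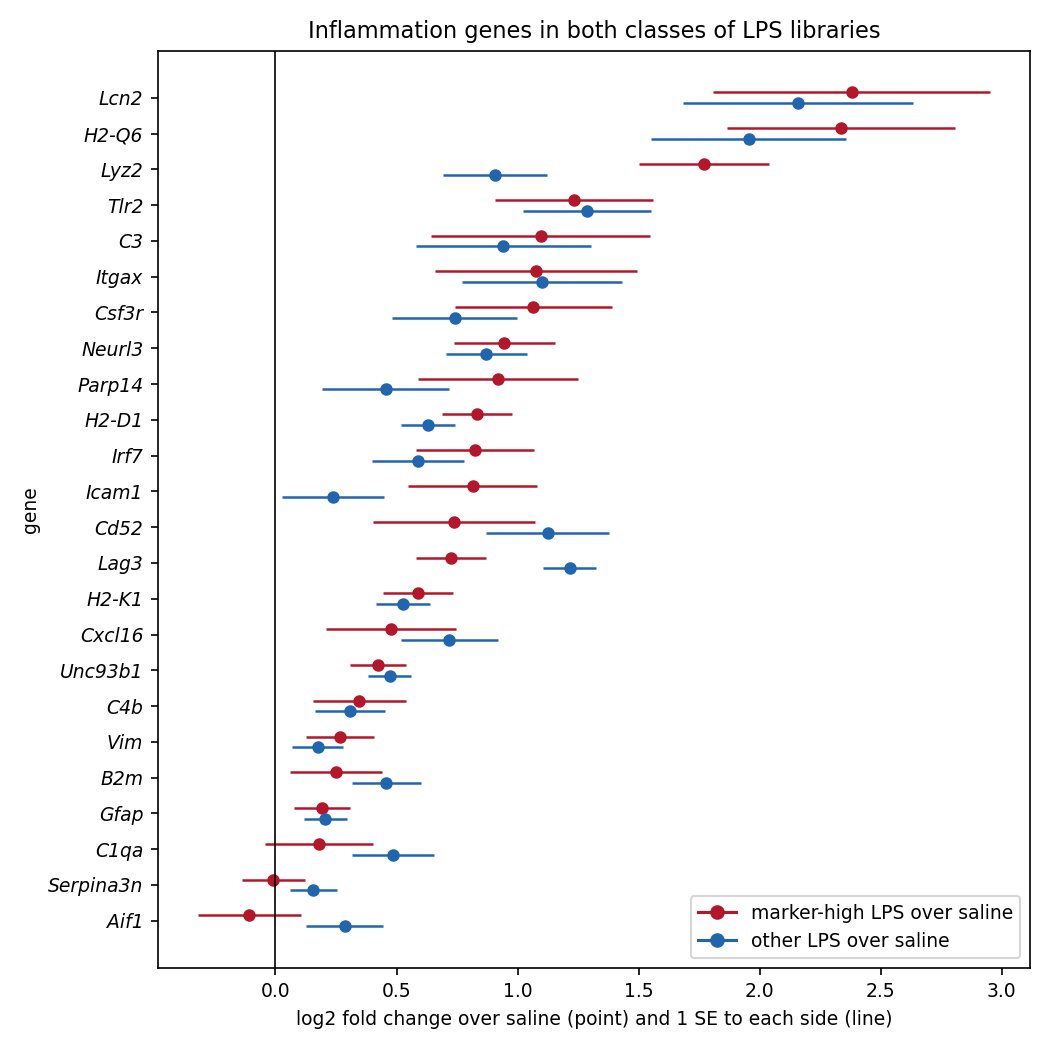
Log2 difference from saline for the fixed inflammation genes other than Saa3, marker-high libraries and other LPS libraries side by side, as points with 1 SE on either side. The points of the 2 classes lie close together for most genes, with gaps in opposite directions for Lag3 (0.72 and 1.22) and Lyz2 (1.77 and 0.91).

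A few inflammation genes split the marker-high libraries themselves. Cfp, the complement regulator properdin, had 12.8 CPM in wild-type LPS 1 and 16.1 in knockout LPS 1, but 2.11 in wild-type LPS 4, inside the range of 0.874 to 5.42 CPM of the other LPS libraries. Irf9, the DNA-binding part of the interferon-activated complex, had 14.6, 7.04 and 17.7 CPM, against 4.84 to 8.12 CPM, and Irak1, a Toll-like receptor kinase, had 60.8, 36.7 and 63.0 CPM, against 34.4 to 46.0 CPM. Wild-type saline 1 had 13.9 CPM of Cfp, 14.6 of Irf9 and 62.4 of Irak1, the levels of the 2 replicate 1 LPS libraries. Irf9 was the 1 inflammation gene called higher with library set as a term.

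The saline libraries, which the choice did not use, were fitted for genes that follow the 3 markers. The marker mean of the saline libraries ran from 0.665 to 1.05 in replicates 1 and 2 and from 1.27 to 1.99 in replicates 3 to 5. This span was far narrower than that between the LPS classes. Shox2 had only 32 counts over the 10 saline libraries, so counting error in a gene near the floor enters this mean. The slopes and the count of calls carry that limit. With genotype and library set as terms, 0 of 16718 genes (0%) followed the marker mean in edgeR's quasi-likelihood test, with 226 at an unadjusted p under 0.05 and 1 called by DESeq2; without the set term the marker mean could not be told apart from the set, and 1984 genes rose and 2401 fell with it. Of the 54 genes above, 31 had a slope in the saline libraries, 23 of them above 0, with a median of 0.17 against -0.002 over all genes, and 1 (Susd2) had an unadjusted p under 0.05.

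Meningeal and border macrophage genes had larger slopes in saline. The median slope was 0.72 log2 units per unit of the marker mean over 20 meningeal fibroblast genes, 18 of them above 0, 0.81 over 7 border macrophage genes, all above 0, and 0.66 over 16 choroid plexus genes, 14 of them above 0. Over the habenula list it was -0.23, with 3 of 7 above 0, and over the 18 relay genes with a slope other than Tcf7l2, Slc17a6 and Shox2 it was 0.18, with 12 above 0. The 3 genes with the smallest p were Filip1, an actin-binding protein, with a slope of -1.51 (SE 0.26, edgeR adjusted p = 0.963), Oxtr, the oxytocin receptor, with 1.11 (SE 0.27, edgeR adjusted p = 1), and Dpt, a dermal matrix protein, with 5.99 (SE 1.51, edgeR adjusted p = 1).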

How the data were processed

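Per the labels, hippocampal total RNA was extracted with the RNeasy Plus Mini kit and 1 µg per sample was made into NEBNext Ultra libraries. The authors deposited a table of raw counts, neither scaled nor filtered, with 55536 genes in 20 libraries. All gene identifiers (100%) were matched to GENCODE M21 on mm10 for symbols and positions. Per the submitters' processing notes, Trimmomatic 0.38, FastQC, MultiQC, featureCounts 1.6.0 and mm10 were used; the aligner, annotation release and strand setting are not given in the sources used here, so overlapping and antisense genes may share reads.

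From the counts, edgeR 4.0.16 (R 4.3.3) gave CPM with TMM factors and kept genes by its default expression filter (filterByExpr). In the fits with marker class, the filter was given that class as its group. A gene then needed its minimum level in 3 libraries, so presence in the marker-high libraries alone could be enough. Robust quasi-likelihood fits followed, with Benjamini-Hochberg adjustment over all genes tested and a threshold of 0.05. The 10 LPS libraries were fitted with marker class and genotype, all 20 with class (marker-high, other LPS, saline) and genotype, and the 10 saline libraries with the marker mean, genotype and library set. Intervals are at 95% from these fits; the Saa3 bounds use a floor of 3 counts over a class total and cover counting error only. Fits were tested on simulated data with known changes. DESeq2 1.42.0, limma 3.58.1 (voom), other filters, library set, replicate block and leaving out each library were tried.

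Members and gene lists were chosen with earlier results of these data known, and fits with library set were in part added after seeing the data. Named genes are the 12 with the smallest p of those called higher (none was called lower), up to 4 of each list, the 3 markers, the 25 fixed inflammation genes, Fkbp5 and the 3 smallest p of the saline slope; other genes were named after their values were seen. Same-numbered wild-type and knockout LPS libraries deviated together from their group means, with correlations of 0.302 to 0.886 (median 0.509) over the 5 numbers, and libraries of other numbers in the same set did so with a median of 0.488. The pairing is read from these correlations; the labels do not say what a number shares. Results for some genes are not reported here.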

Additional observations from a re-analysis of the deposited data

Results flagged for a closer look

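In each group of 5 LPS libraries, the highest and lowest values of the named genes were compared with their nearest neighbour, as the gap divided by the range, and taken as standing apart above Dixon's critical value of 0.71. Of 164 such tests on 82 genes, 30 stood apart; chance gives about 1 in 20 groups, and many of the genes were chosen because they differed between these libraries. In the knockout, which holds 1 marker-high library, knockout LPS 1 was the highest of 5 for regional genes: the ratios were 0.98 for Gata3, 0.889 for Baiap3, 0.872 for Irx1, 0.881 for Tal1, 0.911 for Irx2, 0.898 for Hs3st3b1, 0.885 for Pou4f2, 0.901 for Barhl1, 0.888 for Chrna3, 0.872 for Mab21l1, 0.792 for Chrnb3 and 0.896 for Tfap2b. They were 0.824 for Shox2, 0.848 for Lef1, 0.795 for Patj, 0.823 for Pou4f1, 0.731 for Lhx1, 0.92 for Sox14, 0.85 for Otx2, 0.818 for Tac1 and 0.771 for Foxp2. The wild-type group holds 2 marker-high libraries, so neither could stand alone for these genes.

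Knockout LPS 1 was also the highest of the 5 for Acta2, the actin of smooth muscle, at 0.767, and for inflammation genes: 0.835 for Cfp, 0.795 for Irf9, 0.941 for Irak1 and 0.895 for Aspg. It was the lowest for B2m, the light chain of class I molecules, at 0.872. Wild-type LPS 1 was the highest of the 5 wild-type LPS libraries for Il1r1, the interleukin-1 receptor, at 0.729 and for Aspg, an asparaginase of reactive astrocytes, at 0.754, and the lowest for Nr3c1, the glucocorticoid receptor, at 0.845.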

How the results depend on the processing

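The count of genes higher and lower in the marker-high than in the other LPS libraries moved with most choices. It was 133 and 13 with library set as a term, 393 and 122 with DESeq2, 4751 and 4347 with limma-voom, 283 and 20 without the filter, and 131 and 10 with all 20 libraries in one fit. With library set as a term it was 428 and 155 in limma-voom and 430 and 306 in DESeq2. With the replicate block, and in the wild type alone, it was 0 and 0. Within replicates 1 and 2 it was 1433 and 1285, and within replicates 3 to 5 it was 13 and 2. Size factors of DESeq2 left 54 and 0, and a filter of at least 1 CPM in 3 libraries 49 and 0. Leaving out each library gave 1 to 2142 higher and 0 to 1927 lower. With library set as a term the same step gave 27 to 1299 higher and 0 to 1311 lower: 108 and 5 without wild-type LPS 3, 118 and 61 without wild-type LPS 5, 98 and 8 without knockout LPS 3, 186 and 24 without knockout LPS 4, 81 and 6 without knockout LPS 2, 73 and 2 without knockout LPS 5, 50 and 0 without wild-type LPS 1, and 38 and 0 without wild-type LPS 2. Against saline, the marker-high counts of 179 higher and 15 lower were 414 and 302 with library set, 306 and 171 with DESeq2, 39 lower with the replicate block and 6 lower without the filter; leaving out each library gave 72 to 1407 and 0 to 1771. The other LPS libraries, at 2 higher than saline, had 20 with library set, 9 with the replicate block and 19 with DESeq2, with 1 to 5 higher and 0 lower on leaving out each library. The saline slope had 1984 higher and 2401 lower genes without the set term, 1 lower in DESeq2, and 0 on leaving out each library. The replicate block changed no other call direction. The cause of these moves was not tested. Only genes named by rule were followed across settings. Of these, the 21 that were called in the design as given did not change direction under any setting run. Other called genes in the text, such as Pax7, Irx3 and Chrna6, were not followed in this way. Across the followed genes and settings, 2308 values stayed by these measures and 103 values of called genes lost the threshold. A further 191 values moved by more than the spread of the other LPS libraries. With 3 marker-high libraries in 2 sets, the depth of one comparison limits low genes: 3 counts over a class were 0.0481 CPM in the marker-high, 0.0216 in the other LPS and 0.0149 in the saline libraries.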

Other observations

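Wild-type saline 1 reached the marker-high range for 6 of the 54 higher genes (Ece2, Itga10, Plekhg4, Tmem145, Plppr3 and Otof), and it was the highest saline library for each of the 6. Tmem145 had 41.4 CPM in wild-type LPS 1, 22.6 in wild-type LPS 4 and 52.4 in knockout LPS 1, against 15.3 to 21.8 CPM in the other LPS libraries and 33.7 CPM in wild-type saline 1. Itga10, a collagen-binding integrin, had 5.81, 1.02 and 6.34 CPM in the marker-high libraries in the same order, against 3.94 CPM in wild-type saline 1. For these genes the replicate 1 libraries of wild-type saline, wild-type LPS and knockout LPS were high together, while knockout saline 1 had 17.6 CPM of Tmem145 and 1.01 CPM of Itga10. Wild-type saline 1 also had the lowest CA1 marker Wfs1 of the saline libraries, at 82.8 CPM, beside 49.99 CPM in wild-type LPS 1 and 84.4 CPM in knockout LPS 1. The CA1 list did not share this: its centred mean was -0.19 in wild-type saline 1, inside the saline range of -0.27 to 0.02. In wild-type LPS 1 and knockout LPS 1 that mean was -1.12 and -1.03. Wild-type saline 1 had no count of Shox2, 0.0905 CPM of Gata3 and 0.226 CPM of Irx2. What the 3 replicate 1 libraries share was not tested.

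Haemoglobin and other red cell genes ran in another direction. The centred mean of the blood list was -2.25 in wild-type LPS 1, 1.80 in wild-type LPS 4 and -2.42 in knockout LPS 1, against -1.89 to 1.70 in the other LPS libraries and -3.43 to 1.49 in the saline libraries.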
